A study of Danio rerio with 54 samples.

Results

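The genes followed here encode the nuclear subunits of the mitochondrial respiratory chain and of ATP synthase, together with the few assembly and coupling factors that share their names. They were taken from the deposited tables by symbol: every gene whose name begins with ndufa, ndufb, ndufc, ndufs, ndufv, uqcr, cox4 to cox8, atp5 or sdha to sdhd, and cyc1. This gave 93 of the 15245 genes in the count tables, and all 93 passed the filter on low counts. By complex they are 36 genes of complex I (NADH dehydrogenase), 5 of complex II (succinate dehydrogenase), 8 of complex III (the cytochrome bc1 complex), 19 of complex IV (cytochrome c oxidase), 16 of ATP synthase (complex V), and 9 assembly or coupling factors.

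The respiratory chain passes electrons from NADH and succinate to oxygen and pumps protons across the inner mitochondrial membrane, and ATP synthase uses the returning protons to make ATP. Each complex except complex II is built from nuclear and mitochondrial gene products, so that nuclear subunits need one another and a set of assembly factors. Photoreceptors pack their inner segments with mitochondria and are among the most oxygen-demanding cells known, and Müller glia, which divide in zebrafish to replace lost photoreceptors, are known for a more glycolytic metabolism. The subunits encoded in mitochondrial DNA were not analysed here.

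All fish were adult albino zebrafish of 6 to 9 months kept in 14 h of light and 10 h of dark, and a library was made from a single whole retina. Naive fish came straight from this cycle (6 retinas), and their column names alone carry an age, which lies within this range. The others were kept in the dark for 5 days and then sampled without light (0 h, 6 retinas) or exposed to light. The exposure was about 100000 lux for 30 min and about 10000 lux of halogen light for up to 3 days, which destroys photoreceptors. Fish sampled after the exposure had gone back to the standard light and dark cycle. In a difference from 0 h, the lesion with its repair and the end of darkness cannot be told apart. Retinas were taken at 24, 36 and 72 h post-light (hpl) and at 5, 10, 14 and 28 days post-light (dpl), counted from light onset, with 6 in each group. Replicates 1 to 3 and 4 to 6 were 2 experiments, as the names of the raw read files separate them. The labels give no experiment for the naive retinas, which were assigned to neither here.

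The assay, 3′ mRNA-seq, yields reads near the 3′ end of each transcript, so that the CPM used here (reads scaled to a common library size by TMM) are levels per transcript and are not divided by length. Libraries held 1111500 to 4040440 reads, except for 5 dpl replicate 2 with 228611. In that library these genes took 0.743% of the reads, against 1.44% or more in every other library, and their summed level there was 6172 CPM, the lowest of all libraries. Because the retinas were measured whole, fewer cells of a type and less RNA per cell cannot be told apart. The light lesion itself was plain in the marker genes: the 16 measured cone markers summed to 44365 to 70144 CPM at 0 h and to 2877 to 4532 CPM at 24 hpl, the 11 rod markers to 30841 to 52380 CPM and 3002 to 4478 CPM, and no marker of either list was at 0 in any group.

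The summed level of the 93 genes overlapped that of 0 h through 72 hpl and lay mostly above it at 14 dpl. At 0 h their summed level was 14178, 16147 and 24577 CPM (lowest, median and highest retina), and at 24 hpl it was 13241, 16491 and 22986 CPM. At 14 dpl the sum was 24047, 27268 and 37766 CPM, with 5 retinas above and 1 within the 0 h range. At 28 dpl it was 18152, 23832 and 32993 CPM, so that the groups overlapped again. An F test over the 7 time points called 84 of the 93 genes at an adjusted p below 0.05 (edgeR quasi-likelihood test, Benjamini-Hochberg adjustment over all 13075 genes tested), where 58.1% of all genes were called.

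**Figure D1:**
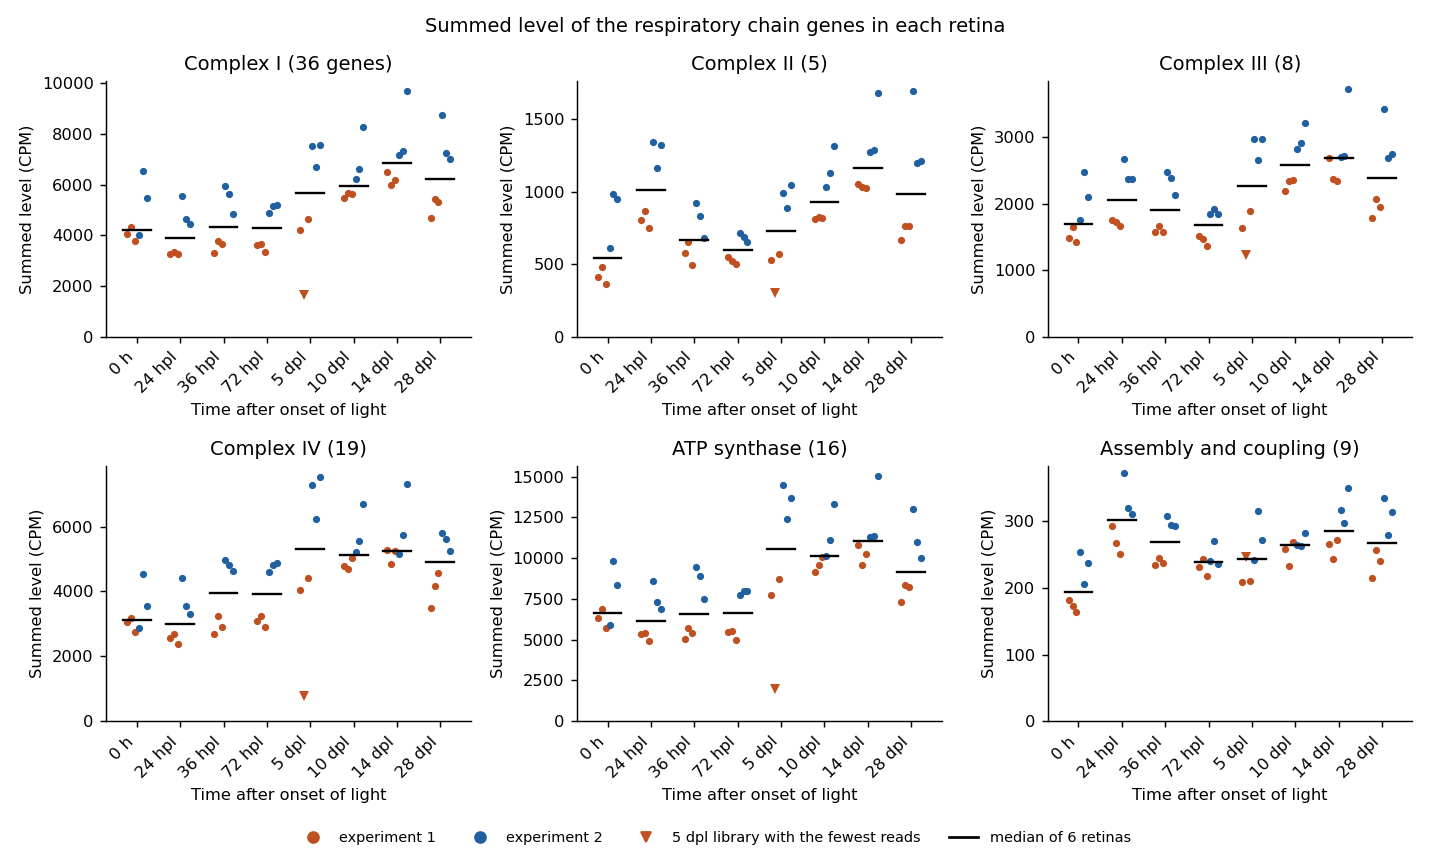
Summed CPM of the genes of each complex (y axis) against time after light onset (x axis), one point per retina coloured by experiment, with a bar at the median of 6 retinas. The triangle is the 5 dpl library with the fewest reads. ATP synthase genes sat between 5691 and 9836 CPM at 0 h and between 9588 and 15028 CPM at 14 dpl.

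The comparison of 24 hpl with 0 h asks what had changed in these genes by the time photoreceptor transcripts were low. Of complex II 3 of 5 genes rose, as did its 3 assembly factors, cytochrome c1 and a few single subunits, while 4 complex I genes, 1 complex IV gene, 1 ATP synthase gene and 1 coupling factor fell. In all, 13 of 93 genes were higher and 7 were lower, against 19% and 17.7% of all genes, and the median log2 change was -0.10 for these genes and -0.10 for all genes. Scaling by library totals moved the median of all genes to 0.01 and that of the 93 genes to 0.02. The called share was below the background in both directions. Besides the genes described next, cox5aa, cox6b1, ndufaf3 and cox5b2 were higher, the last at no more than 8.45 CPM in any retina.

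A large rise was that of cyc1, which encodes cytochrome c1, the heme subunit of complex III that hands electrons to cytochrome c. Its level was 137, 172 and 289 CPM at 0 h and 397, 500 and 651 CPM at 24 hpl (lowest, median, highest). Every retina at 24 hpl stood above every 0 h retina, and the log2 change was 1.37 ± 0.18 (SE, adjusted p = 1.4e-08, edgeR). The other 7 complex III genes did not pass the test at 24 hpl, among them uqcrfs1, the Rieske iron-sulfur protein, at 0.12 ± 0.17, and uqcrc1, a core protein, at -0.26 ± 0.15.

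Of the 5 complex II genes 3 rose at 24 hpl. The flavoprotein gene sdha, whose product oxidises succinate, went from 147, 263 and 564 CPM to 428, 578 and 837 CPM (log2 0.93 ± 0.20, adjusted p = 1.4e-04), with 3 of the 24 hpl retinas above every 0 h retina and 3 within the 0 h range. The iron-sulfur subunit gene sdhb went from 89.9, 167 and 236 CPM to 190, 264 and 329 CPM (0.71 ± 0.14, adjusted p = 3.6e-05), again with overlapping ranges. For sdhc, a membrane anchor, the log2 change was 0.47 ± 0.18, and this call was lost when any of 5 single libraries was left out. All 3 succinate dehydrogenase assembly factors rose with them: sdhaf2, known from yeast and human cells to attach FAD to the flavoprotein, by 1.11 ± 0.16, sdhaf3, which helps the iron-sulfur subunit mature, by 1.37 ± 0.18, and sdhaf4, a chaperone of the flavoprotein, by 1.09 ± 0.17. The levels of sdhaf3 were 9.17, 10.8 and 14.9 CPM at 0 h and 23.2, 29.3 and 39.4 CPM at 24 hpl, so that the groups did not overlap.

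At 36 and 72 hpl sdha and sdhb no longer passed the test, while cyc1 did. The sdha change was 0.14 ± 0.20 at 36 hpl and 0.00 ± 0.20 at 72 hpl, and that of sdhb was 0.00 ± 0.13 and -0.28 ± 0.14, none of which passed. Against this, cyc1 stayed higher than at 0 h at 36 hpl (0.95 ± 0.18) and 72 hpl (0.61 ± 0.18). It was 1 of 5 genes that were higher than 0 h at all 7 time points, a count not made over all genes. The others were sdhaf3, sdhaf4, ndufab1a and cox5aa, a nuclear subunit of cytochrome c oxidase. The product of ndufab1a is the mitochondrial acyl carrier protein, which is also a complex I subunit. At 28 dpl the call was lost without any of 9 single libraries for cox5aa, 6 for sdhaf3, 3 for ndufab1a and 2 for cyc1, and at 72 hpl without any of 2 for ndufab1a.

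In complex I 4 of 36 genes were lower at each of 24, 36 and 72 hpl, and no gene of the other complexes was. This joint count was not made over all genes. The largest fall was that of ndufs8b, a paralog of a subunit that carries iron-sulfur clusters on the way to ubiquinone. Its level was 25.1, 31.98 and 67.98 CPM at 0 h, 4.99, 8.59 and 14.6 CPM at 24 hpl and 2.69, 3.92 and 6.95 CPM at 72 hpl. All retinas at these times lay below all 0 h retinas, and the log2 changes were -2.06 ± 0.40 at 24 hpl, -2.61 ± 0.41 at 36 hpl and -3.18 ± 0.43 at 72 hpl (adjusted p = 1.9e-08 at 72 hpl, edgeR). By 10 dpl the level was back to 22.1, 44.5 and 59.04 CPM, a difference from 0 h of 0.23 ± 0.35 that did not pass. The other 3 genes fell less: ndufs1, the large iron-sulfur subunit of the NADH-oxidising arm, by 0.68, ndufs7, which holds the last iron-sulfur cluster before ubiquinone, by 0.77, and ndufa9a, an accessory subunit, by 0.36 on the log2 scale at 24 hpl. The 16 cone markers had a median log2 change of -4.04 at 24 hpl and the 11 rod markers one of -2.33. Of 14 microglia and macrophage markers 9 were higher and 2 lower (median 2.74). Of 14 dividing cell markers 9 were higher and 1 lower (median 1.76), and of 11 Müller glia markers 5 were higher and 5 lower (median -0.13). The dividing cell markers summed to 235 to 324 CPM at 0 h and 1749 to 2581 CPM at 36 hpl, where 14 of 14 were higher, as at 72 hpl, and the microglia markers to 302 to 438 CPM and 406 to 747 CPM. The part of these lists in the early changes was not tested.

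Within the same complex ndufv1, which binds NADH and FMN, moved the other way at 24 hpl. Its levels were 63.8, 92.8 and 152 CPM at 0 h and 95.3, 143 and 219 CPM at 24 hpl, and it rose by 0.59 ± 0.14 (adjusted p = 3.9e-04) with overlapping ranges. Of the remaining complex I genes only ndufab1a rose at this time.

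At 36 hpl 21 of the 93 genes were higher than at 0 h and 4 were lower, against 23.6% and 23.4% of all genes, and at 72 hpl 12 were higher and 10 lower, against 22.7% and 20.2%. The median log2 changes were 0.10 and 0.01, against -0.08 and -0.04 for all genes. The 4 genes lower at 36 hpl were the complex I genes already named, and at 72 hpl ndufa10 and ndufs5 of complex I, uqcrc1 and uqcrfs1 of complex III, atp5f1, the peripheral stalk subunit b of ATP synthase, and ndufaf5, a complex I assembly factor, joined them (ndufa9a, ndufa10, ndufs5 and cox5b2 are named here after their values were seen). Of the 19 complex IV genes 5 were higher at 72 hpl and none was lower, which is near the share of all genes called higher. Among them were cox7b at 0.62 ± 0.16 and cox5aa at 0.55 ± 0.17, while the calls of cox4i1 and cox6a1 were lost without any of 6 and 2 single libraries. With other size factors (RLE) the split at 72 hpl was 12 higher and 15 lower, and in experiment 1 alone it was 4 and 10, so no balance in either direction is reported for that time. At 36 hpl experiment 1 alone gave 6 higher and 3 lower and experiment 2 alone 31 higher and 2 lower.

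**Figure D2:**
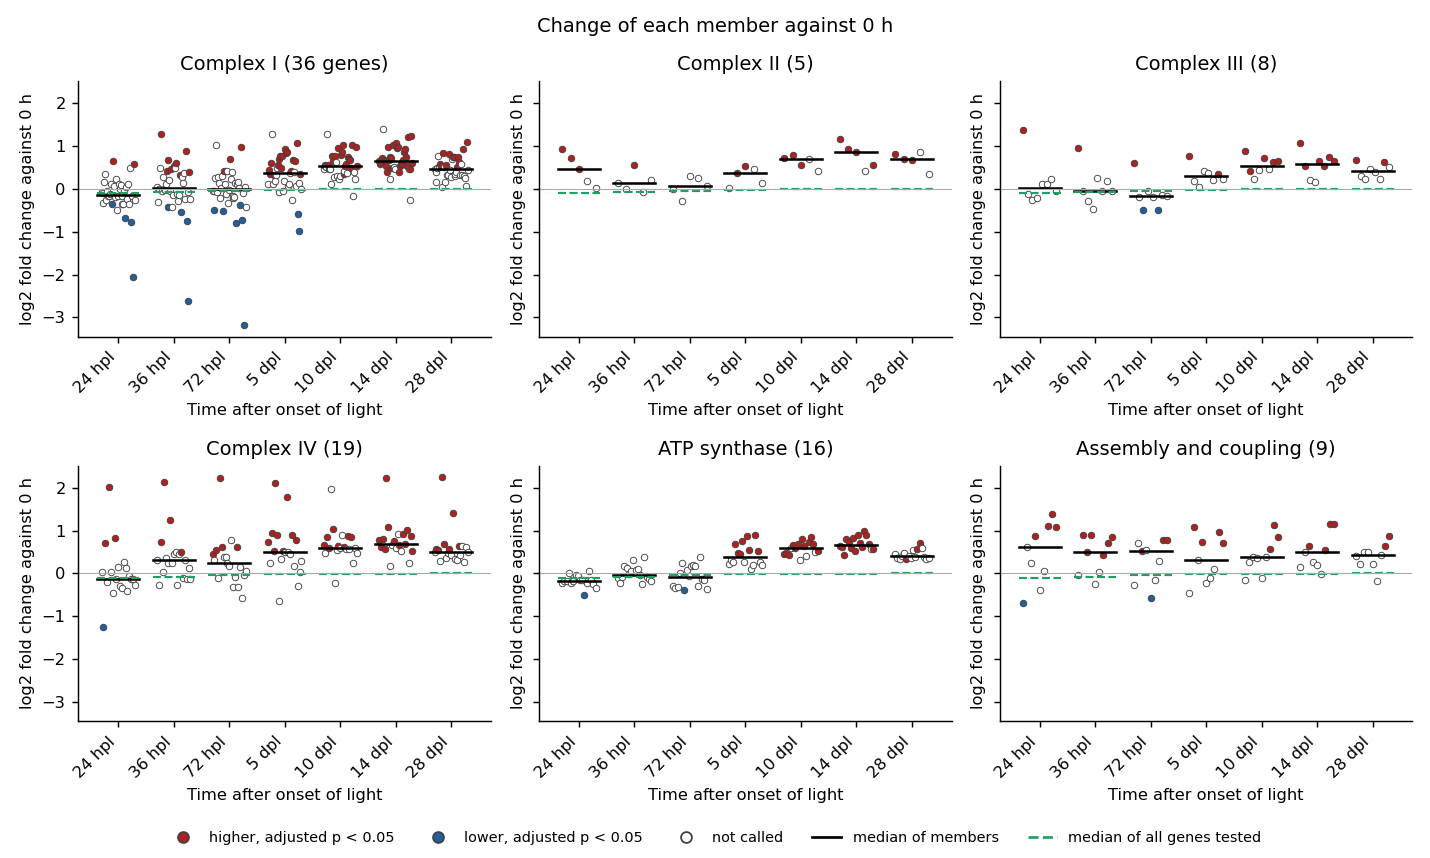
The log2 fold change of each gene against 0 h (y axis) at 7 time points (x axis), by complex, with genes called higher in red, lower in blue and not called in white. Black bars are medians of the complex and dashed green bars the median of all genes tested. Complex I shows the long lower tail from 24 to 72 hpl, down to -3.18, and every complex lies above the green bar at 10, 14 and 28 dpl.

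From 5 dpl on, nearly all called genes were higher than at 0 h. The part of the return from darkness to the light and dark cycle in this was not tested. At 5 dpl 42 genes were higher than at 0 h and 2 (ndufs7 and ndufs8b) were lower, against 17.5% and 14.3% of all genes, with a median log2 change of 0.37 against -0.02 for all genes. The lower call was lost without any of 6 single libraries for ndufs8b and without 1 for ndufs7. Leaving out 5 dpl replicate 2 gave 64 higher and 2 lower. The called genes were 17 of complex I, 2 of complex II, 2 of complex III, 9 of complex IV, 8 of ATP synthase and 4 assembly factors. Experiment 2 alone called 53 higher and none lower (median 0.60), and experiment 1 alone 4 and 3 (median 0.08), or 27 and 3 (median 0.30) once replicate 2 was left out.

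Set directly against 72 hpl, 30 of the 93 genes were higher at 5 dpl and none was lower, where 6.54% of all genes were higher and 6.96% lower. The largest changes were those of ndufs8b (2.18 ± 0.45), ndufa10, an accessory subunit (0.93 ± 0.17), and atp5f1 (0.84 ± 0.11). For atp5f1 the levels were 177, 206 and 254 CPM at 72 hpl and 313, 371 and 460 CPM at 5 dpl, and no 5 dpl retina reached down to the 72 hpl range, the shallow library included. Complex III, with 5 of 8 genes, and ATP synthase, with 8 of 16, had the larger called shares, and complex IV had 3 of 19. The count was 55 without 5 dpl replicate 2, 18 without replicate 4, 17 without replicate 6, 12 in a fit on these 12 libraries and 8 without the experiment term, all higher. Over this step the 11 measured Müller glia markers summed to 11482 to 16713 CPM at 72 hpl and 9706 to 13973 CPM at 5 dpl, and the cone markers to 1757 to 3150 CPM and 7146 to 26417 CPM. The part of either in the step was not tested.

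At 10 dpl 52 genes were higher than at 0 h and none was lower, and at 14 dpl 72 were higher and none was lower. The background was 7.06% higher and 2.85% lower at 10 dpl, and 8.5% higher and 4.67% lower at 14 dpl. The median log2 change was 0.56 at 10 dpl and 0.64 at 14 dpl, with -0.01 for all genes at both times. The medians were alike in the 2 experiments at 14 dpl, 0.64 in experiment 1 and 0.63 in experiment 2. Without the experiment term the counts were 17 at 10 dpl and 33 at 14 dpl, and without 0 h replicate 4, 10 dpl replicate 1 or 10 dpl replicate 3 the 10 dpl count was 33, all of them higher. Scaling by library totals, which moved the median of all genes to -0.16 at 14 dpl, left 47 higher there and none lower.

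Of the ATP synthase genes 15 of 16 were higher at 14 dpl, with a median log2 change of 0.66. The catalytic β subunit gene atp5b had the highest level of the whole set, with 1530, 1861 and 2834 CPM at 0 h and 2528, 2960 and 3772 CPM at 14 dpl, with 4 of the 6 retinas at 14 dpl above every 0 h retina. It rose by 0.62 ± 0.14 (adjusted p = 2.4e-03, edgeR). The α subunit gene atp5a1 went from 406, 452 and 667 CPM to 570, 751 and 1029 CPM (0.63 ± 0.15, adjusted p = 3.7e-03). The γ subunit gene atp5c1, the rotating shaft, changed by 0.43 ± 0.14, and that call was lost when any of 7 single libraries was left out. The largest log2 changes were those of atp5ib, subunit e (0.99 ± 0.19), atp5g3b, a subunit c gene of the rotor ring (0.90 ± 0.25, lost without 1 single library), and atp5j, coupling factor F6 of the stator (0.89 ± 0.23).

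In complex I 30 of 36 genes were higher at 14 dpl, with a median log2 change of 0.65. The NADH-binding subunit gene ndufv1 rose to 181, 213 and 295 CPM from 63.8, 92.8 and 152 CPM at 0 h (1.23 ± 0.14, adjusted p = 3.4e-09), and the groups did not overlap. The zinc-binding subunit gene ndufs6 went from 19.8, 43.3 and 61.4 CPM to 84.2, 95.8 and 168 CPM (1.22 ± 0.27), also without overlap. Within experiment 1 the ndufs6 change was 0.62, which did not pass, and within experiment 2 it was 2.08, which did. Some genes that had been low after the lesion crossed over in the fit of both experiments. The levels of ndufs1 were 103, 153 and 184 CPM at 0 h, 60.2, 88.7 and 118 CPM at 72 hpl and 177, 230 and 327 CPM at 14 dpl. Its change against 0 h at 14 dpl was 0.66 ± 0.14. Within experiments 1 and 2 it changed by -1.15 and -0.44 at 72 hpl and by 0.36 and 0.96 at 14 dpl. The fall passed the test in experiment 1 only and the rise in experiment 2 only. In all, 7 of the 13 genes that were lower at some time point were higher at a later one, a count not made over all genes. For ndufs7 no such reversal passed the test (0.45 ± 0.19 at 14 dpl).

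Complex II rose again, with 4 of 5 genes called at 14 dpl and a median log2 change of 0.87. The level of sdha was 532, 631 and 956 CPM at 14 dpl (1.15 ± 0.20, adjusted p = 4.7e-05, edgeR) after 54.5, 332 and 526 CPM at 5 dpl. At 5 dpl 1 retina lay below every 0 h retina. The complex II sum there was 302 CPM in the shallow replicate 2 and 530 CPM or more in the others. The sdha gene was called higher than 0 h at 24 hpl, was not called from 36 hpl to 5 dpl, and was called higher again from 10 dpl. For sdhb the medians were 264, 133 and 315 CPM at 24 hpl, 72 hpl and 14 dpl, it was higher than 0 h at 5 dpl already (lost without any of 5 single libraries), and its 72 hpl change was -0.88 in experiment 2 and 0.26 in experiment 1. Complex III had 6 of 8 genes higher at 14 dpl and complex IV 13 of 19, among them cyc1 (1.06 ± 0.18), uqcrh, the hinge protein (0.74 ± 0.13), cox6a1 (1.08 ± 0.23), cox7b (0.92 ± 0.16) and cox4i1, the usual isoform of the largest nuclear subunit of complex IV (0.78 ± 0.18). The core protein gene uqcrc1 was not among them (0.20 ± 0.15).

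The step from 5 to 10 dpl called 9 genes higher and none lower, against 5.75% and 6.81% of all genes, and included ndufs8b (1.22 ± 0.37, lost without any of 3 single libraries), sdha (0.70 ± 0.20), ndufs1 (0.63 ± 0.15) and ndufv1 (0.62 ± 0.14). The median log2 change was 0.52 within experiment 1 and -0.12 within experiment 2, and no gene was called without the experiment term. The count was 4 without 5 dpl replicate 1 or 5 or 10 dpl replicate 1, 5 without 10 dpl replicate 2 or 6, and 3 without 10 dpl replicate 3.

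At 28 dpl 29 genes were still higher than at 0 h and none was lower, against 4.72% and 3.36% of all genes, with a median log2 change of 0.46 against 0.00. The called genes were 12 of complex I, 3 of complex II, 2 of complex III, 7 of complex IV, 3 of ATP synthase and 2 assembly factors. The smallest adjusted p was that of ndufv1, at 145, 188 and 295 CPM (1.098 ± 0.14, adjusted p = 3.5e-08), with 1 retina inside the 0 h range. Others were sdha (0.82 ± 0.20), ndufs1 (0.75 ± 0.14), sdhb (0.69 ± 0.14), cox7b (0.63 ± 0.16) and uqcrh (0.63 ± 0.13). Within experiments 1 and 2 sdhb changed by 0.96 and 0.45, and only the former passed. The changes of ndufs1 were 0.49 and 1.03, and only the latter passed. Over the whole course 20 genes were higher than at 0 h at each of 5, 10, 14 and 28 dpl and 75 at 1 of them or more. Another 10 genes were called at none of the time points. These joint counts were not made over all genes, so they are not set against a background. The 28 dpl count was 4 without the experiment term, 8 in experiment 1 alone and 21 in experiment 2 alone, and 16, 15, 19, 19 and 18 without 0 h replicate 4 or 6 or 28 dpl replicate 2, 3 or 4.

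Markers of other cells moved in the same period. The 11 rod markers summed to 40795 to 53783 CPM at 14 dpl, which overlaps the 0 h range, and the 16 cone markers to 65962 to 78854 CPM at 28 dpl, against 44365 to 70144 CPM at 0 h. The 9 measured markers of the retinal pigment epithelium summed to 1744 to 3573 CPM at 0 h and 4206 to 8065 CPM at 14 dpl, and 8 of the 9 were higher there. The Müller glia markers summed to 3012 to 4662 CPM at 0 h and 4618 to 6127 CPM at 14 dpl. Of 14 dividing cell markers 13, 8 and 5 were higher at 5, 10 and 14 dpl, and of 14 microglia and macrophage markers 9, 9 and 4 were. No rod, cone, pigment epithelium or Müller glia marker was at 0 in any group, and the part of these lists in the rise of the respiratory genes was not tested.

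The comparison of naive with 0 h retinas asks how fish before and after dark adaptation differed, with no lesion in either. The naive levels come as pseudo-counts, which are counts the authors adjusted to a common library size, and the test was limma on log2(pseudo-count + 1) over 18 libraries and 11700 genes. At 0 h 83 of the 93 genes were lower than in naive retinas and none was higher, against 26.9% and 26.5% of all genes, with a median log2 difference of -1.13 against 0.02 for all genes. The summed pseudo-counts were 62312, 67723 and 75094 in naive retinas and 26517, 30714 and 46842 at 0 h, and the groups did not overlap. All 16 ATP synthase genes were lower, 34 of 36 of complex I, 4 of 5 of complex II, 7 of 8 of complex III, 16 of 19 of complex IV and 6 of 9 of the factors.

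Single genes followed the sum. For ndufv1 the pseudo-counts were 554, 653 and 762 in naive retinas and 119, 177 and 290 at 0 h, a log2 difference of -1.86 ± 0.19 (SE, adjusted p = 1.1e-07, limma). For sdha they were 1558, 1901 and 2265 against 275, 497 and 1076 (-1.78 ± 0.29), and for cyc1 757, 1021 and 1167 against 257, 327 and 551 (-1.45 ± 0.19), each without overlap. The β subunit gene atp5b differed less, at 4776, 5652 and 6001 against 2861, 3512 and 5403 (-0.59 ± 0.16), with overlapping ranges. A complex I gene that did not share the difference was ndufs5, with a median of 683 in both groups (-0.03 ± 0.11), and ndufs8b gave -0.39 ± 0.45.

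At 28 dpl the genes still stood below naive retinas, 65 lower and 1 higher, against 17.6% and 19.7% of all genes, with a median log2 difference of -0.60 against 0.05. The gene that was higher was ndufs5, an accessory subunit, at 605, 683 and 781 in naive retinas and 743, 830 and 1006 at 28 dpl (0.30 ± 0.11, adjusted p = 0.041, limma). No gene was called higher without naive replicate 1, 5 or 6 or without 28 dpl replicate 2, 3 or 4. The summed pseudo-counts were 34907, 46404 and 62836 at 28 dpl, which overlapped the naive range only at the highest retina. Thus 22 genes were both higher at 28 dpl than at 0 h and lower than in naive retinas, and 65 were lower than naive at both times. Neither joint count was made over all genes, so no background share stands beside them. The comparisons of 0 h and of 28 dpl share the naive retinas, so these counts are not independent.

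The naive comparison has limits that touch its size. The pseudo-counts of naive libraries summed to 2497760 to 2707270 and those of the others to 1513700 to 2443190. Dividing each library by its total moved the median of all genes to 0.47 at 0 h and 0.38 at 28 dpl and gave 1 higher and 72 lower at 0 h and 4 higher and 30 lower at 28 dpl. Retinas of experiment 1 gave 81 lower at 28 dpl and those of experiment 2 gave 17, each with 1 higher. Dark adaptation and any difference between the naive libraries and the 2 experiments in how they were made cannot be told apart. Cone markers differed mostly the same way, with 12 of 16 lower and 1 higher at 0 h than in naive retinas. They summed to 84565 to 133750 against 150710 to 185760 pseudo-counts. Of 9 markers of the retinal pigment epithelium 8 were lower and none higher (3262 to 6811 against 3133 to 13742). Of 11 rod markers 5 were lower and 2 higher. Of 11 Müller glia markers 8 were lower and none higher (5742 to 8889 against 10286 to 12826), and of 15 amacrine and ganglion cell markers 6 were lower and 2 higher. The part of these lists was not tested.

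**Figure D3:**
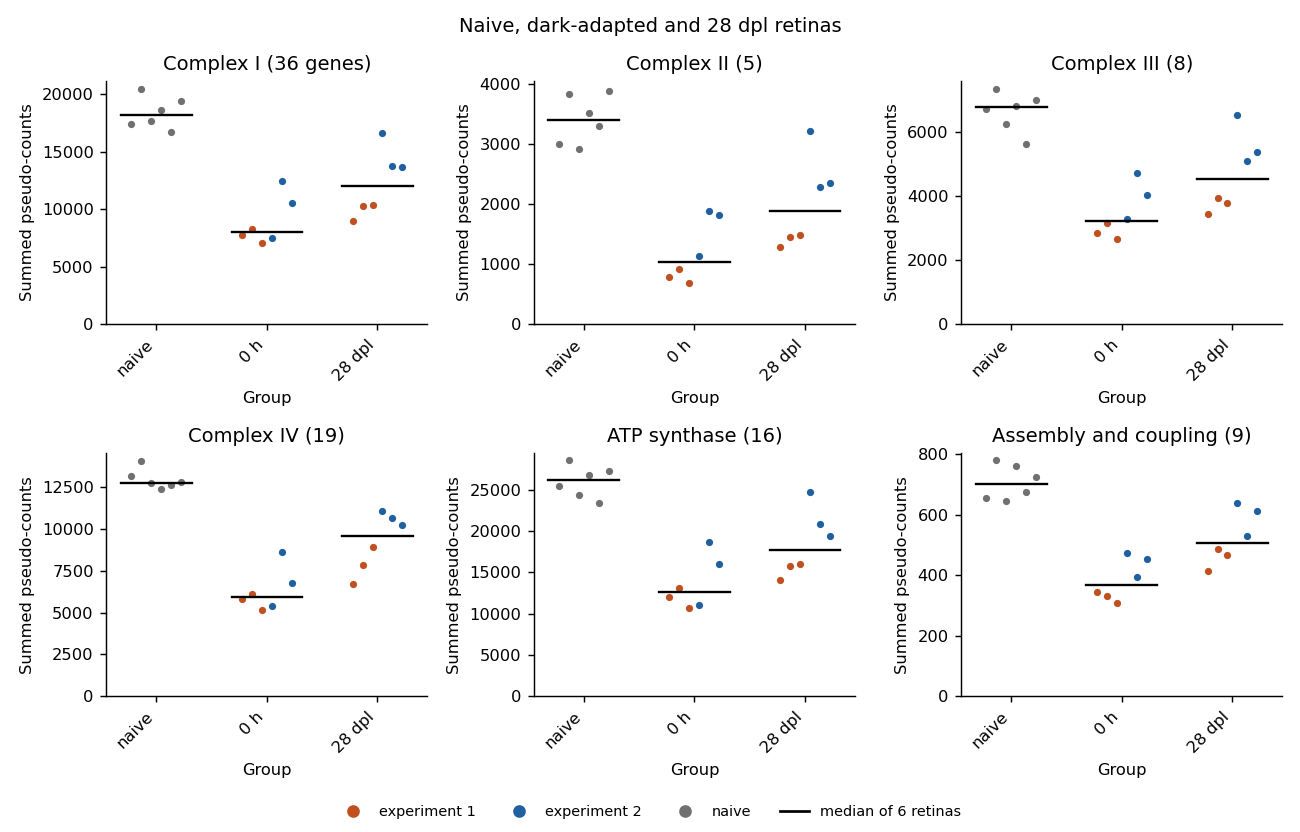
Summed pseudo-counts of the genes of each complex (y axis) in naive, 0 h and 28 dpl retinas (x axis), one point per retina with a bar at the median of 6, experiment 1 in orange, experiment 2 in blue and naive in grey. In all 6 panels the naive retinas lie above every 0 h retina, for complex I at 16661 or more against 12471 or less.

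Several subunits are encoded by more than 1 gene, and the balance between these paralogs was compared with 0 h as the share of one gene in the summed CPM of its set. For 17 genes in 13 sets at 7 time points this made 119 exact two-sided permutation tests, of which 12 had an adjusted p below 0.05. The smallest p that 6 against 6 retinas can give is 0.0022 (adjusted 0.023), and within 1 experiment it is 0.10. Reads of similar paralogs may be assigned to either copy by the counting, so a share is a share of assigned reads.

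The balance of the subunit 4 genes of cytochrome c oxidase differed at 24 hpl. The share of cox4i2, an isoform known in mammals for its response to low oxygen, was 29.5%, 31.0% and 34.2% at 0 h and 13.2%, 15.2% and 19.4% at 24 hpl, with no overlap (exact permutation p = 0.0022, adjusted p = 0.023). In level cox4i2 fell from 129, 141 and 180 CPM to 43.01, 55.7 and 108 CPM (log2 -1.25 ± 0.19, adjusted p = 3.4e-07, edgeR), while cox4i1 gave 0.03 ± 0.18. At 5 dpl the mean share was 21.5% and the difference passed again, and without replicate 2 it was -6.43 points with an adjusted p of 0.034 in the exact permutation test. In the subunit 5a pair the share of cox5ab fell from a mean of 60.2% at 0 h to 44.4%, 47.9% and 48.5% at 24, 36 and 72 hpl (adjusted p = 0.023 each, exact permutation test), with no overlap. Here it was the partner cox5aa that rose, by 0.70 ± 0.17 at 24 hpl, while cox5ab gave -0.21 ± 0.17.

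The share of ndufs8b in the ndufs8 pair had a mean of 30.6% at 0 h and of 11.5%, 7.12% and 5.22% at 24, 36 and 72 hpl (adjusted p = 0.023 each, exact permutation test). Its partner ndufs8a did not pass at these times, with log2 changes of -0.17 ± 0.14, -0.07 ± 0.14 and -0.10 ± 0.14. At 36 hpl the set named for subunit 7a shifted from cox7a2a (86.0% to 78.5%) towards cox7a3, under its newer symbol cox7a2l (13.2% to 20.2%). These shares are parts of the same sum, so their tests are not independent. At 72 hpl subunit e of ATP synthase shifted from atp5ib (53.2% to 45.7%) towards atp5ia. Each of these shares had an adjusted p of 0.023 in the exact permutation test. The share of cox8b was 7.32% at 0 h and 4.30% at 14 dpl (adjusted p = 0.043). All 12 differences had the same sign in both experiments.

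**Figure D4:**
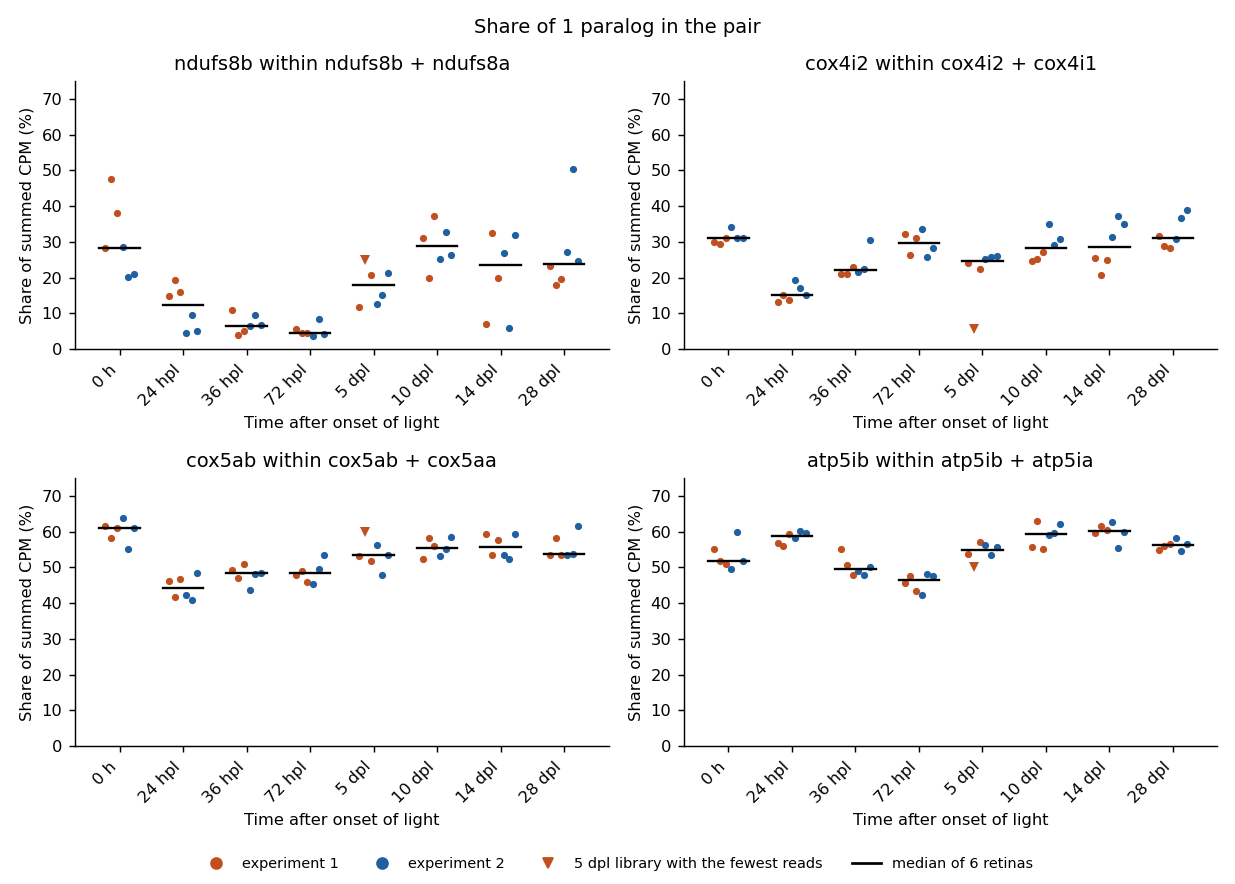
Share of one paralog in the summed CPM of its pair, in percent (y axis), against time after light onset (x axis), one point per retina with a bar at the median of 6. The share of ndufs8b dropped from a median of 28.4% at 0 h to 4.53% at 72 hpl, and those of cox4i2 and cox5ab were lowest at 24 hpl, at 15.2% and 44.3%.

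The 2 experiments differed in level for most of these genes. Of the 93, 81 were higher in experiment 2 and 1 (cox6a2) was lower, against 26.1% and 28% of all genes, with a median log2 difference of 0.53 against -0.02 for all genes. An extreme case was uqcrc2a, a paralog of the core protein 2 of complex III. It lay between 0 and 7.2 CPM in all 24 retinas of experiment 1 and between 29.9 and 93.5 CPM in all 24 of experiment 2 (log2 4.18, adjusted p = 6.7e-26, edgeR), and it was called at no time point against 0 h. Its partner uqcrc2b had 44.4 to 67.6 CPM at 0 h in the same 6 retinas, in which uqcrc2a ran from 0 to 64.5 CPM. The cause was not tested.

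The change from 0 h itself differed between the experiments for 8 genes in 11 tests of the interaction. None was called at 24 hpl, 10 dpl, 14 dpl or 28 dpl, where 0.0765%, 0.0612%, 0.0229% and 0.451% of all genes were called and 7, 8, 7 and 10 of the 93 had an unadjusted p below 0.05. At 36 hpl 3 genes were called, at 72 hpl 4 and at 5 dpl 4, against 1.13%, 0.78% and 1.02% of all genes. At these 3 times 25, 18 and 50 of the 93 had an unadjusted p below 0.05 in the interaction test. The gene ndufs6 had means of 54.9 and 58.5 CPM at 0 h and 36 hpl in experiment 1 and of 31.3 and 119 CPM in experiment 2, a difference of log2 changes of 1.84 (adjusted p = 0.041). The peripheral stalk gene atp5h fell by 0.60 at 36 hpl in experiment 1 and rose by 0.91 in experiment 2. In the other direction sdhb changed by 0.26 at 72 hpl in experiment 1 and by -0.88 in experiment 2, and sdhaf2 by 0.89 and -0.36. Without 5 dpl replicate 2 the fit called 13 such differences, but at 5 dpl only that of atp5h (1.24, adjusted p = 0.049).

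**Figure D5:**
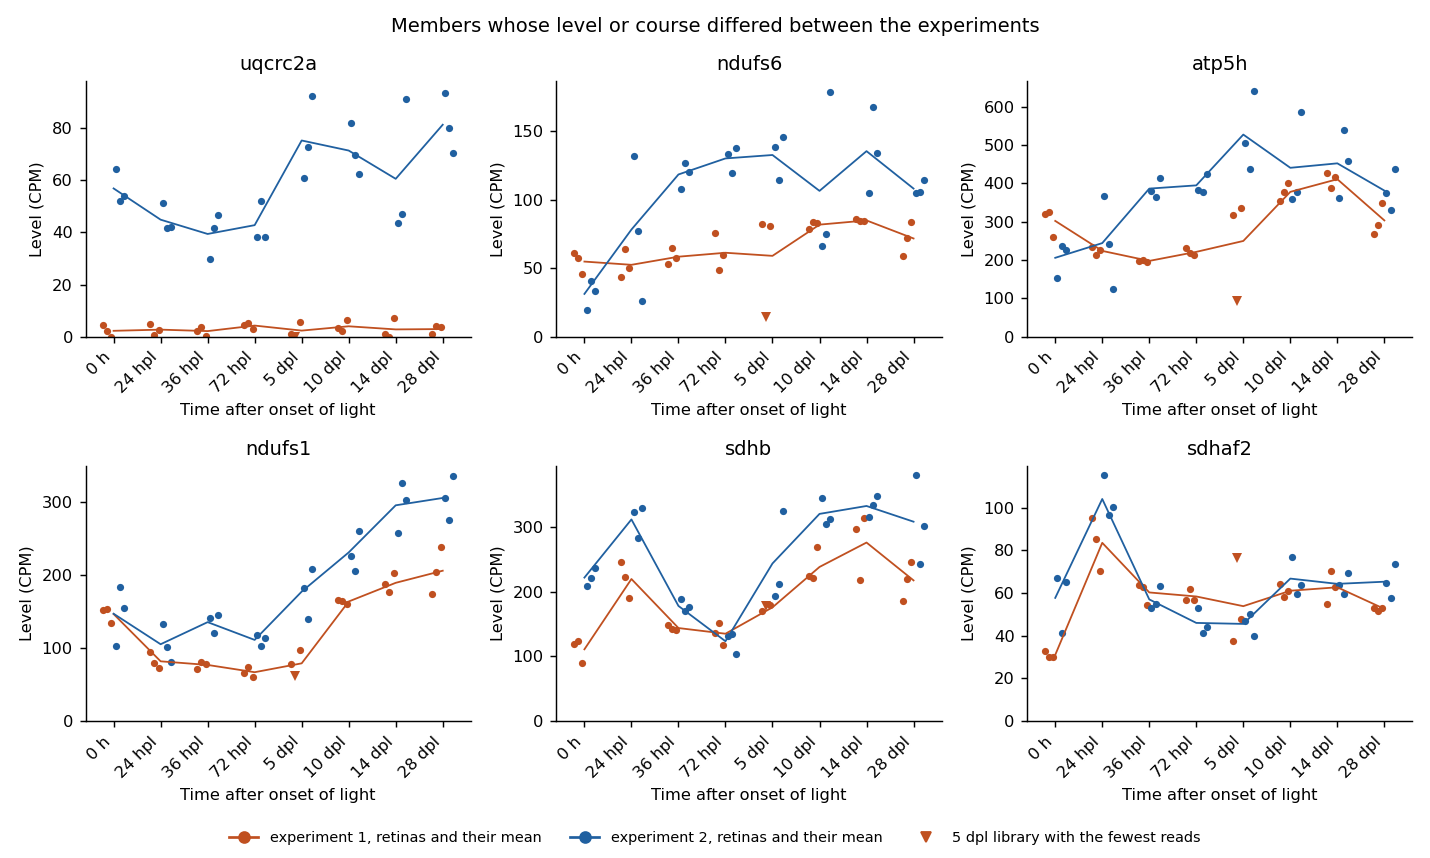
Levels in CPM (y axis) of 6 genes against time after light onset (x axis), one point per retina and a line through the means of each experiment, orange for experiment 1 and blue for experiment 2. The 24 experiment 1 retinas of uqcrc2a stay at 7.2 CPM or less, and at 36 hpl the means of ndufs6 were 58.5 CPM in experiment 1 and 119 CPM in experiment 2.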

How the data were processed

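Reads had been aligned by the authors with STAR (build dR10), tallied over genes by HTSeq and scaled in edgeR, in versions not given in the sources used here. They deposited raw counts for 48 libraries in 7 tables sharing the 0 h columns, and a table of pseudo-counts (normalised signal) for all 54 libraries, the 6 naive ones included. Here counts were tested with edgeR 4.0.16 (R 4.3.3): TMM, genes with at least 5 reads in 6 libraries, group plus experiment, quasi-likelihood F test over 13075 genes, Benjamini-Hochberg adjusted p below 0.05. Naive comparisons used limma 3.58.1 on log2(pseudo-count + 1) with a trend over 11700 genes. Single shares used exact permutation tests (scipy 1.17.1). Alternatives included DESeq2 1.42.0. Methods were tested on simulated data. The genes and lists were chosen with earlier results of these data known, and the genes named are the called genes of each complex with the 3 highest and 3 lowest changes at 5 of the times and at least 20 CPM, defining subunits, paralogs, and genes whose change differed between experiments. All 93 symbols matched RefSeq names or synonyms, 19 of them under a newer symbol. The values of 1 defining subunit are not reported here. The authors' own fold changes and p-values, also in the tables, were not used. The edgeR p-values set group differences against the spread between single retinas that was left once a common shift between the experiments was taken out. Those of limma and of the permutation tests, which had no experiment term, used the full spread between single retinas. Apart from the naive ones, these retinas came from 2 experiments with 3 retinas per group in each. Depth is given with the results.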

Additional observations from a re-analysis of the deposited data

Results flagged for a closer look

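Single retinas stood apart from their group in 11 of 167 group values examined (about 1 in 20 would do so by chance). In each the highest retina lay far from the next. The sums of the complexes are parts of the sum over all 93 genes. These values are therefore not independent, and their number cannot be set against the chance rate. At 14 dpl this was replicate 6, with a summed level of 37766 CPM over all 93 genes (next 28716), 9679 CPM for complex I, 3724 CPM for complex III, 7307 CPM for complex IV and 15028 CPM for ATP synthase, and with 390 CPM for uqcrfs1. This library had the lowest TMM factor of all, 0.774, which raises its CPM. The 93 genes took 2.92% of its reads, against 2.59% in replicate 5. At 10 dpl replicate 6 stood apart for ndufs7 (776 CPM) and cox4i1 (689 CPM). The others were sdhb in 5 dpl replicate 6 (324 CPM), uqcrc1 in 24 hpl replicate 4 (165 CPM) and cyc1 in 28 dpl replicate 4 (493 CPM).

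The change from 0 h differed between the experiments (experiment 2 minus experiment 1, log2, edgeR interaction test) for atp5h at 36 hpl (1.52), 72 hpl (1.39) and 5 dpl (1.54), ndufs6 at 36 hpl (1.84) and 72 hpl (1.90), ndufc2 at 36 hpl (1.01), sdhaf2 at 72 hpl (-1.22), sdhb at 72 hpl (-1.12), and cox7a3 (1.47), ndufb5 (1.48) and ndufs1 (1.09) at 5 dpl. Adjusted p-values ran from 0.018 to 0.042.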

How the results depend on the processing

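Counts of called genes are given as totals. Without the experiment term they were 16 (36 hpl), 13 (72 hpl), 28 (5 dpl), 17 (10 dpl), 33 (14 dpl), 4 (28 dpl), 8 (5 dpl against 72 hpl) and 0 (10 against 5 dpl, edgeR). Experiment 1 alone gave 9, 14, 7, 18, 28, 8 and 2 in the first 7 of these, and experiment 2 alone 24 at 10 dpl, 40 at 14 dpl and 1 from 5 to 10 dpl. Library totals gave 47 at 14 dpl and 4 from 5 to 10 dpl. limma on pseudo-counts gave 28 at 5 dpl, 12 against 72 hpl and 14 from 5 to 10 dpl, and the 12-library fit 13, 12 and 2. Experiment 1 without 5 dpl replicate 2, chosen after seeing the data like the other fits without that library, gave 20 from 5 to 10 dpl. At 72 hpl lower genes outnumbered higher ones with RLE (27 called), in experiment 1 (14), with DESeq2 (30), in the 12-library fit (31) and without 0 h replicate 4 (24). Against naive, 28 dpl gave 34 after division by totals, 39 with all 54 libraries and 18 with experiment 2 retinas.

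Leaving out single libraries gave 17 to 22 (24 hpl), 19 to 29 (36 hpl), 20 to 26 (72 hpl), 32 to 66 (5 dpl), 33 to 53 (10 dpl), 48 to 73 (14 dpl), 15 to 34 (28 dpl), 17 to 55 (5 dpl against 72 hpl), 3 to 8 (10 against 5 dpl), 82 to 85 (0 h against naive), 55 to 73 (28 dpl against naive) and 11 to 17 (paralog shares). The F test without 5 dpl replicate 2 called 86 genes. Among uqcrc2a, cox6a1 and the named genes called at the time given, those whose sign turned were atp5h (-0.60 at 36 hpl and -0.19 at 5 dpl) and ndufc2 (-0.17 at 36 hpl) in experiment 1, sdhaf2 in experiment 2 (-0.014 at 36 hpl), uqcrc2a, 0h against naive, with experiment 1 retinas (-1.96) and cox6a1 at 28 dpl against naive after division by totals (0.32). The causes were not tested.

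Replicate numbers were shared by groups but did not pair the retinas: within experiments the median correlation of same-numbered deviations was -0.007. With the replicate block the counts against 0 h were 20 (24 hpl), 22 (36 hpl), 23 (72 hpl), 38 (5 dpl), 46 (10 dpl), 71 (14 dpl) and 24 (28 dpl), 26 for 5 dpl against 72 hpl, 7 for 10 against 5 dpl, 83 for 0 h against naive and 69 for 28 dpl against naive. Low depth limits the 5 genes with a median under 5 CPM at 0 h, and in 5 dpl replicate 2 also genes with higher levels. There cox7a2a, with a median of 229 CPM at 0 h, had a share of 50% in its set. In the other 5 dpl retinas its share was 84.5% or more.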

Other observations

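Lists of mitochondrial genes outside the name pattern were fitted in the same way. Of 33 measured assembly factors 16 were higher than at 0 h at 24 hpl and none was lower, with a median log2 change of 0.65 (19% and 17.7% of all genes were called), among them cox17, the copper chaperone of cytochrome c oxidase (1.78 ± 0.11, SE), and cox15, which makes heme a (1.55 ± 0.36). Of 29 measured genes of mitochondrial protein import 21 were higher and none lower at that time (median 0.81), led by the chaperonin genes hspd1 (2.79 ± 0.14) and hspe1 (2.83 ± 0.22). At 14 dpl 12 of the 33 and 7 of the 29 were higher and none was lower (8.5% and 4.67% of all genes), and at 28 dpl 6 and 3 were higher (4.72% of all genes). At 0 h 19 of 32 assembly factors and 19 of 28 import genes were lower than in naive retinas (26.9% of all genes).

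Of 14 measured genes of mobile electron carriers and adenine nucleotide exchange 4 were higher and 6 lower at 24 hpl (19% and 17.7% of all genes). At 14 dpl 8 of them were higher and none was lower (8.5% and 4.67% of all genes). Among carriers the phosphate carrier paralogs changed in opposite directions. The gene slc25a3a fell by 3.18 at 24 hpl while slc25a3b rose by 1.06 ± 0.18. The mitochondrial creatine kinase genes ckmt2a and ckmt2b fell by 3.28 and 2.63, and vdac1, the outer membrane channel, by 1.39, while cytochrome c (cycsb) rose by 1.62 ± 0.16. Of 17 measured genes of the tricarboxylic acid cycle list 3 were higher and 5 lower at 24 hpl (19% and 17.7% of all genes), pdha1b of pyruvate dehydrogenase falling by 2.99, and 8 were higher and none lower at 14 dpl (8.5% and 4.67% of all genes). Of 14 measured regulators of mitochondrial gene expression 1 was higher and 3 were lower at 24 hpl, shares below or near those of all genes, with nrf1 falling by 1.08.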
